A study of Homo sapiens with 5 samples.

Results

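The genes described here are the cyclins of types D, E, A and B and the kinases CDK1 and CDK2, taken by symbol from a table of normalized read counts in IMR-90 cells. All 10 symbols were among the 26364 listed genes, and all 10 passed the filter on low counts (a mean of at least 10 normalized counts over the libraries). IMR-90 is a widely used line of normal, not immortalized, human lung fibroblasts, a cell type that makes the collagen-rich matrix of connective tissue. Growing cells were transfected with a control siRNA (Ctr-KD) or with an siRNA against NSD2 (NSD2-KD), a histone H3 lysine 36 methyltransferase, and poly(A) RNA was sequenced at 24 hr. The 2 Ctr-KD libraries were described as biological replicates, and each of the 3 NSD2-KD libraries came from a different siRNA (NSD2-1, NSD2-2 and NSD2-3). An effect of one siRNA therefore cannot be told apart from the variation of a single culture, and p-values measure only the spread between these 5 libraries.

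The libraries held between 2473691 and 2845063 reads on genes, so that 3 reads, the smallest amount a library was taken to show, were worth 2.76 to 3.28 normalized counts. All 9 fibroblast markers lay over that level in every library, with summed levels of 216770 to 221764 normalized counts in Ctr-KD and 202229 to 228133 in NSD2-KD. Of the markers of other cell types, 2 of 7 epithelial markers, 0 of 4 endothelial markers and 1 of 5 immune markers lay over it in all libraries, and KRT5, SFTPC, PECAM1, CDH5, PTPRC, CD3E and HLA-DRA were at 0. The epithelial sum was 159 to 162 normalized counts in Ctr-KD and 149.7 to 265 in NSD2-KD, highest with NSD2-3 through KRT8 and KRT18. The endothelial sum was 1.91 to 4.12 against 1.95 to 6.55 and the immune sum 71.0 to 80.02 against 60.5 to 105, and the part of other cells in the results was not tested. NSD2, listed as WHSC1, had 463 and 443 normalized counts in Ctr-KD and 90.2, 81.9 and 87.9 with NSD2-1, NSD2-2 and NSD2-3. It fell in every NSD2-KD library, to 19.9%, 18.1% and 19.4% of the Ctr-KD mean, by a log2 difference of -2.37 ± 0.12 (SE) with an adjusted p of 0.000464 (limma). Without either Ctr-KD library this call was lost, with limma adjusted p of 0.0927 and 0.0758.

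A cyclin-dependent kinase is inactive until a cyclin binds it, and the cyclins are made and destroyed in turn as the cell divides. The D cyclins answer growth signals in G1 and pair with CDK4 and CDK6, the E cyclins pair with CDK2 as cells enter S phase, and cyclin A and the B cyclins pair with CDK2 and CDK1 through S phase, G2 and mitosis. D cyclin RNA depends mainly on growth signals, whereas the RNAs of the A and B cyclins and of CDK1 accumulate late in the cycle of dividing cells. The question asked of these genes was whether the G1 cyclins (types D and E) and the S/G2/M cyclins (CCNA2, CCNB1 and CCNB2) differed in their response to loss of NSD2.

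With each of the 3 siRNAs the S/G2/M cyclins lay below the level of either control. So did both E cyclins, CCNE1 by less than 1 read, beside 13.9% of all genes tested with every NSD2-KD library below both controls. Each D cyclin, in contrast, had NSD2-KD libraries below and above both controls. The lower levels were graded by siRNA, with NSD2-2 lowest for each of the 3 S/G2/M cyclins and NSD2-3 nearest to the controls. None of the 10 genes passed limma's test across all genes at an adjusted p under 0.05, where 0.053% of the 11313 tested genes were called lower and 0.0354% higher. In bulk RNA, fewer cells in a phase and less RNA per cell cannot be told apart.

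**Figure D1:**
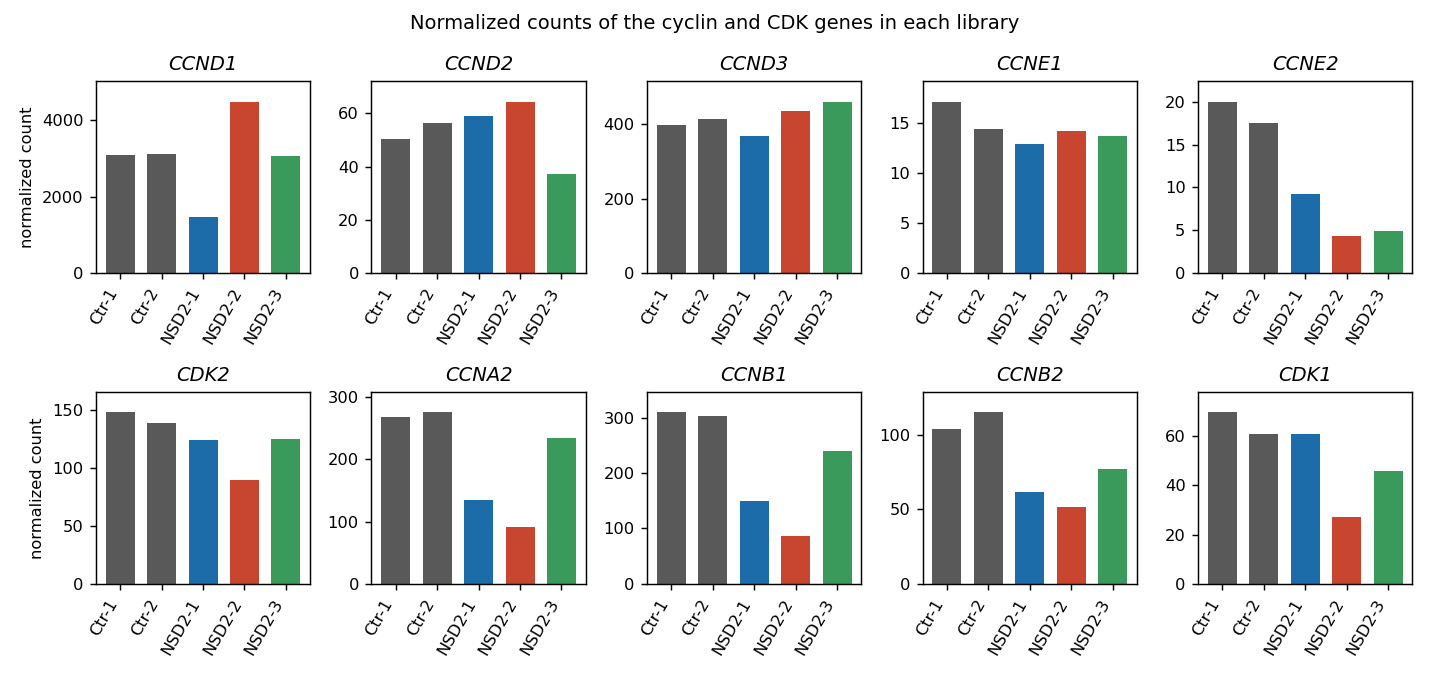
Normalized counts (vertical axis, its own scale in each panel, starting at 0) of the 10 cyclin and CDK genes, with 1 bar for each of the 5 libraries (grey: Ctr-KD; colours: NSD2-1, NSD2-2 and NSD2-3). CCNA2, CCNB1 and CCNB2 were below both controls with every siRNA, while CCND1 ranged from 1459 with NSD2-1 to 4482 with NSD2-2.

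Among the D cyclins, CCND1 (cyclin D1; GRCh37, chr11:69455924-69469242, plus strand) is the main growth factor-responsive cyclin of fibroblasts. It had 3099 and 3112 normalized counts in Ctr-KD and 1459, 4482 and 3069 with NSD2-1, NSD2-2 and NSD2-3. The controls were nearly equal, whereas NSD2-1 was far below them, NSD2-2 above them and NSD2-3 at their level. In percent of the controls, CCND1 stood at 47.0% (95% counting interval 44.5 to 49.7) with NSD2-1, 144% (139 to 150) with NSD2-2 and 98.8% (94.7 to 103) with NSD2-3. These intervals are exact binomial ones on the reads and cover counting error only. The fitted log2 difference was -0.19 ± 0.38 (SE; 95% interval -1.06 to 0.68; limma adjusted p = 0.915), and without the NSD2-1 library it was 0.26. The 3 siRNAs thus gave a mean near the control from levels that differed 3.07-fold (2.90 to 3.26) between NSD2-2 and NSD2-1.

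CCND3 (cyclin D3; chr6:41902672-42018095, minus strand) had 398 and 414 normalized counts in Ctr-KD and 368, 436 and 461 in NSD2-KD. The groups overlapped, with NSD2-1 below and the other two above the controls. Its log2 difference was 0.05 ± 0.12 (SE; 95% interval -0.23 to 0.33; limma adjusted p = 0.937), the narrowest interval of the 10 genes. CCND2 (cyclin D2; chr12:4378937-4414519, plus strand) was the scarcest D cyclin, with 50.5 and 56.6 normalized counts in Ctr-KD and 58.9, 64.4 and 37.1 in NSD2-KD. Here NSD2-3 was low and the other two siRNAs were above both controls. The difference was -0.04 ± 0.26 on the log2 scale (95% interval -0.63 to 0.55; limma adjusted p = 0.977), and its sign changed with the library left out. The lowest D cyclin library was NSD2-1 for CCND1 and CCND3 and NSD2-3 for CCND2, never NSD2-2.

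The E cyclins were near the lower limit of the data. CCNE1 (cyclin E1; chr19:30302898-30315219, plus strand) had 18 and 14 reads in Ctr-KD and 14, 13 and 14 in NSD2-KD, or 17.1 and 14.4 against 12.9, 14.2 and 13.7 normalized counts. Its groups did not overlap only because the second control lay 0.2 normalized counts above NSD2-2, less than 1 read. The log2 difference was -0.20 ± 0.27 (SE; 95% interval -0.83 to 0.43; limma adjusted p = 0.876). CCNE2 (cyclin E2) had 21 and 17 reads in Ctr-KD and 10, 4 and 5 in NSD2-KD, or 20.01 and 17.5 against 9.2, 4.4 and 4.9 normalized counts. Every siRNA was below both controls, and the log2 difference of -1.52 ± 0.38 (SE; 95% interval -2.40 to -0.64) was the largest of the 10 genes. Its limma p was 0.0039 before and 0.267 after adjustment over all genes. With so few reads the level per library was loose: NSD2-2 stood at 23.2% of the controls with a counting interval of 6.03 to 64.6. In the annotation an exon of CCNE2 shares 1629 bases with INTS8 on the other strand, and the strand setting of the counting was not given, so reads of the pair cannot be told apart. Shorter exon overlaps with other genes lie in CCND2 (474 bases, same strand) and, on the other strand, in CDK2 (325), CCND1 (253), CCNA2 (250) and CCND3 (24).

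CDK2 (chr12:56360565-56366573, plus strand), the kinase that cyclins E and A bind, had 148 and 139 normalized counts in Ctr-KD and 124, 89.6 and 125 in NSD2-KD. All 3 siRNAs were below both controls, NSD2-1 and NSD2-3 by little and NSD2-2 more clearly, at 62.4% (counting interval 48.3 to 80.0). The log2 difference was -0.36 ± 0.18 (SE; 95% interval -0.77 to 0.06; limma adjusted p = 0.606).

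CCNA2 (cyclin A2; chr4:122737599-122745038, minus strand), the A cyclin of S phase and G2, had 269 and 276 normalized counts in Ctr-KD and 134, 91.8 and 234 in NSD2-KD. The controls lay close together, NSD2-1 and NSD2-2 were well below them, and NSD2-3 was nearest to them. Relative to the controls the levels were 49.4% (counting interval 40.9 to 59.4), 33.7% (26.5 to 42.5) and 86.1% (73.7 to 100.4). The log2 difference was -0.93 ± 0.33 (SE; 95% interval -1.68 to -0.18), with a limma p of 0.0208 and an adjusted p of 0.420.

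CCNB1 (cyclin B1; chr5:68462962-68474072, plus strand), which carries CDK1 into mitosis, showed the same order of libraries. It had 310 and 303 normalized counts in Ctr-KD and 150, 86.3 and 239 in NSD2-KD, which was 48.9% (40.9 to 58.2), 28.1% (21.98 to 35.6) and 78.0% (67.0 to 90.6) of the controls. Each interval ended below the control level. The log2 difference was -1.07 ± 0.35 (SE; 95% interval -1.87 to -0.27), with a limma p of 0.0151 and an adjusted p of 0.389. Between siRNAs the level was 2.77-fold (2.14 to 3.62) higher with NSD2-3 than with NSD2-2.

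CCNB2 (cyclin B2; chr15:59397325-59417244, plus strand), the second mitotic B cyclin, had 104 and 115 normalized counts in Ctr-KD and 61.7, 51.3 and 77.1 in NSD2-KD. The siRNAs lay closer together than for CCNB1, at 56.4%, 47.0% and 70.5% of the controls, and all were below both control libraries. The log2 difference was smaller but more even, -0.80 ± 0.20 (SE; 95% interval -1.26 to -0.34), with a limma p of 0.00394 and an adjusted p of 0.267.

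CDK1 (chr10:62538089-62554610, plus strand), the kinase of mitotic entry, had 69.5 and 60.7 normalized counts in Ctr-KD and 60.7, 27.3 and 45.9 in NSD2-KD. NSD2-1 was level with the second control, so the groups overlapped, while NSD2-2 was at 41.8% (26.1 to 64.5) of the controls and NSD2-3 at 70.3% (49.3 to 98.7). The log2 difference was -0.60 ± 0.31 (SE; 95% interval -1.32 to 0.12; limma adjusted p = 0.620). NSD2-2 was again the lowest library, as for CDK2 and the 3 S/G2/M cyclins.

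**Figure D2:**
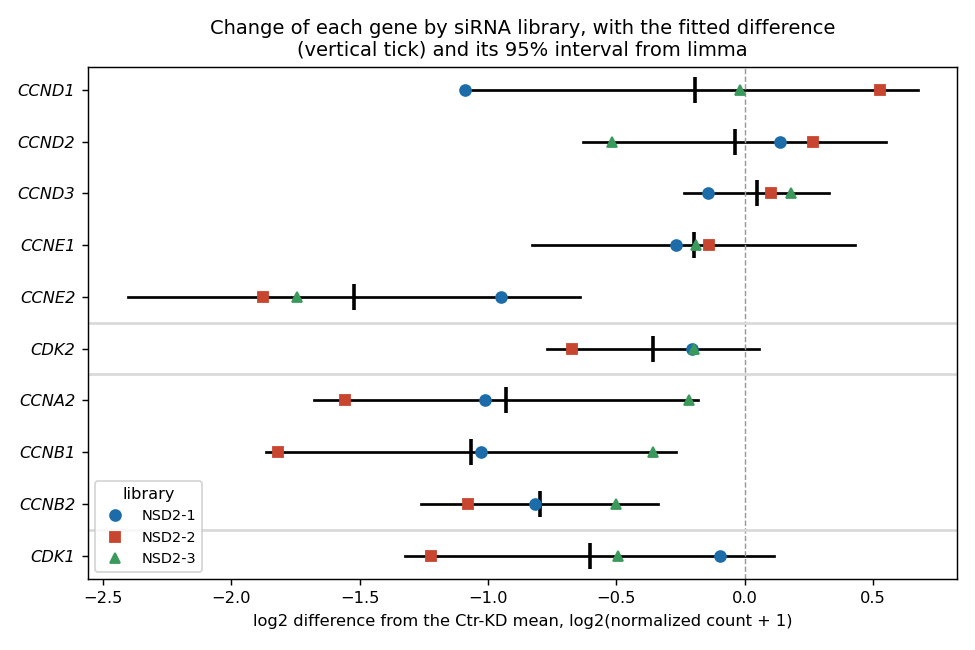
Log2 difference from the Ctr-KD mean on the log2(normalized count + 1) scale (horizontal axis) for each gene, with coloured points for the 3 NSD2-KD libraries, a tick for the fitted mean difference and a line for its 95% interval from limma. CCNA2, CCNB1, CCNB2 and CCNE2 have intervals wholly below 0, and the red squares of NSD2-2 lie far left for the A and B cyclins and to the right for CCND1 and CCND2.

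RNAs of late cell cycle genes are known to be governed through short promoter elements, among them the CHR (cell cycle genes homology region), through which the DREAM complex represses them in resting cells, and the CCAAT box bound by NF-Y. From the RefSeq promoter table (GRCh38.p14, from 250 bases before to 50 after a transcript start), 9 windows for 6 of the 10 genes were examined. Windows on the chromosome of CCNE2 were left out, so the promoter of CCNE2 was not searched. The 150 bases just before the start are shown for the S/G2/M cyclins and CDK1, the late genes of the set, and for the G1 cyclin CCNE1 as a contrast. Capitals mark CHR matches (TTTGAA or TTTAAA) and CCAAT matches, the latter written as ATTGG where they are on the other strand.
CCNB1, chr5:69167000-69167149, plus strand: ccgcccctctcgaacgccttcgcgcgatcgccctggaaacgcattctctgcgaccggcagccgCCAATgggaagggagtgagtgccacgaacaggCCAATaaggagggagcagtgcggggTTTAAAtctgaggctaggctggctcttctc
CCNB2, chr15:59104996-59105145, plus strand: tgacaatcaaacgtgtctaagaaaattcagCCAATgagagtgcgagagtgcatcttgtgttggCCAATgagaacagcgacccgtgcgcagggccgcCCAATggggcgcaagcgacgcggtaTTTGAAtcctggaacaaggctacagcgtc
CDK1, chr10:60778328-60778477, plus strand: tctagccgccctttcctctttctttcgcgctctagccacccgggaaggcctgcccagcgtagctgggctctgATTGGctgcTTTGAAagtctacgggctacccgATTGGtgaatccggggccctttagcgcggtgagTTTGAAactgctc
CCNA2, chr4:121823884-121824033, minus strand: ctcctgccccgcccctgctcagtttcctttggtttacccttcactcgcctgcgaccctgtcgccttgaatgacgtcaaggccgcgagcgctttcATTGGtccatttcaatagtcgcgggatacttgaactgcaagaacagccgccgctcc
CCNE1, chr19:29811841-29811990, plus strand: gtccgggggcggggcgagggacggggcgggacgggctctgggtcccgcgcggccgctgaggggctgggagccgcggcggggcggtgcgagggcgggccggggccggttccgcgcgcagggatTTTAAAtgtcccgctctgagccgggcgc

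Counted from -1 at the last base before the start, CCNB1 had CCAAT at -87 and -55 and the CHR letters at -30. CCNB2 had CCAAT at -87 and -54 and the CHR letters at -29, each within 1 base of its place in CCNB1, and a further CCAAT at -120. The CDK1 stretch, from the second of its 2 windows, had CCAAT at -78 and -46 and the CHR letters at -69 and -13. CCNA2 had 1 CCAAT match, at -56, and neither CHR spelling. Other spellings of the CHR were not searched, so its absence from CCNA2 is not shown. CCNE1 had the CHR letters at -28, no CCAAT match and 7 matches to GGGCGG (the Sp1 box) over its 300 bases. None of the 3 CCND3 windows held a CHR spelling, but the first had CCAAT at -64 and the second at -136. Searched on both strands, with the palindrome TTTAAA counted once, a CHR spelling was in 24.0% of the 35116 windows of the table, CCAAT in 34.6%, both in 9.27%, at least 2 CCAAT in 10.8% and GGGCGG in 45.0%. Both kinds were in all 4 windows of CCNB1, CCNB2 and CDK1. An E2F spelling (TTCCCGC, or the letters TTGGCGC, or else TTCGCGC, or finally TTGCCGC), found in 12.97% of windows, was in the CCNB1 window and both CDK1 windows. The CDK1 windows overlap, and their E2F matches are the same sites. A GGGCGG match of CCNB2 overlapped its CCAAT at -54.

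**Figure D3:**
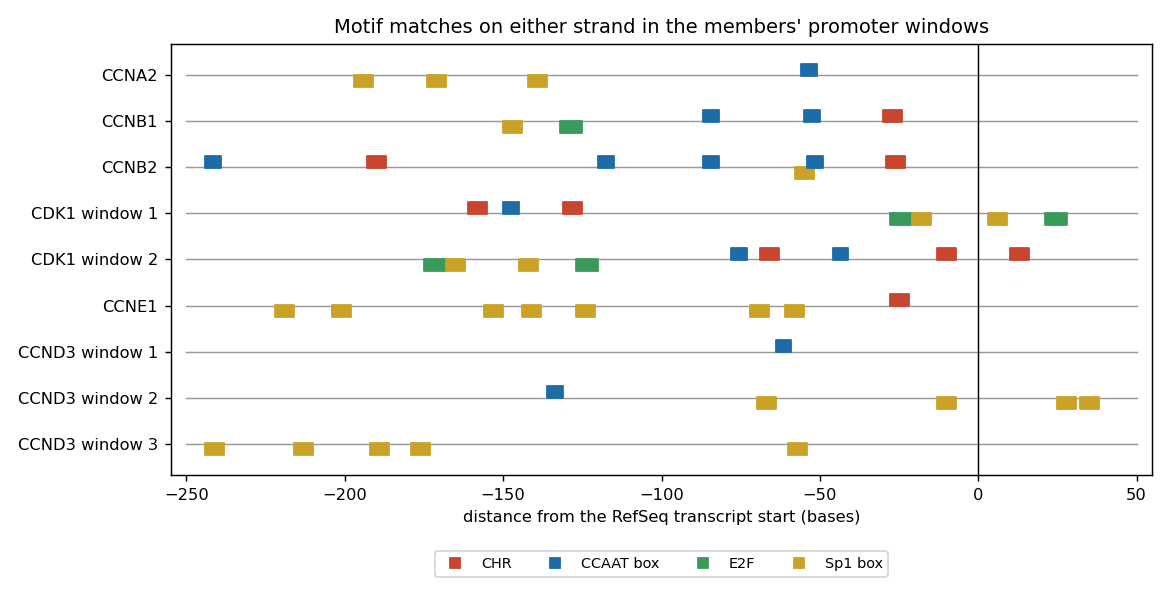
Motif matches on either strand (coloured blocks) in the 9 promoter windows of 6 cyclin and CDK genes, by distance from the RefSeq transcript start in bases (horizontal axis; the vertical line is the start). CHR and CCAAT matches occur together in the CCNB1, CCNB2 and CDK1 windows, and Sp1 boxes are most numerous in the CCNE1 window, with 7.

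Set side by side, the median log2 difference was -0.19 over the 5 G1 cyclins and -0.93 over the 3 S/G2/M cyclins, a gap of 0.74, beside a median of -0.0089 over all genes tested. By siRNA, the S/G2/M median was -1.01 with NSD2-1, -1.56 with NSD2-2 and -0.36 with NSD2-3, and the G1 median was -0.27, 0.10 and -0.19. The gap was positive with each siRNA, at 0.74, 1.66 and 0.17. The 2 controls lay 0.016 to either side of 0, mirroring each other by construction because both were set against their own mean. With every siRNA the range of the G1 cyclins enclosed that of the S/G2/M cyclins. With NSD2-1 these ranges were -1.09 to 0.14 and -1.03 to -0.82, and with NSD2-3 -1.74 to 0.18 and -0.50 to -0.22. Leaving out 1 library at a time gave gaps of 0.43 to 1.08. The G1 group was not uniform, since its CCNE2 had the most negative difference of all 10 genes. With the D cyclins alone the medians by siRNA were -0.14, 0.27 and -0.02.

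The reads of the A and B cyclins (CCNA2, CCNB1 and CCNB2) as a share of all A, B and D cyclin reads do not depend on the scaling between libraries. That share was 16.1% (exact 95% binomial interval 15.1 to 17.2) and 16.2% (15.1 to 17.4) in Ctr-KD, 15.5% (14.1 to 17.0) with NSD2-1, 4.40% (3.84 to 5.02) with NSD2-2 and 13.4% (12.4 to 14.4) with NSD2-3. NSD2-1 was within the range of the control intervals although its A and B cyclins were near 50% of the controls, because CCND1, which supplied most of the D cyclin reads, was lower by as much there. NSD2-2, with the lowest A and B cyclins and the highest CCND1, stood far apart, and NSD2-3 lay a little below the controls.

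**Figure D4:**
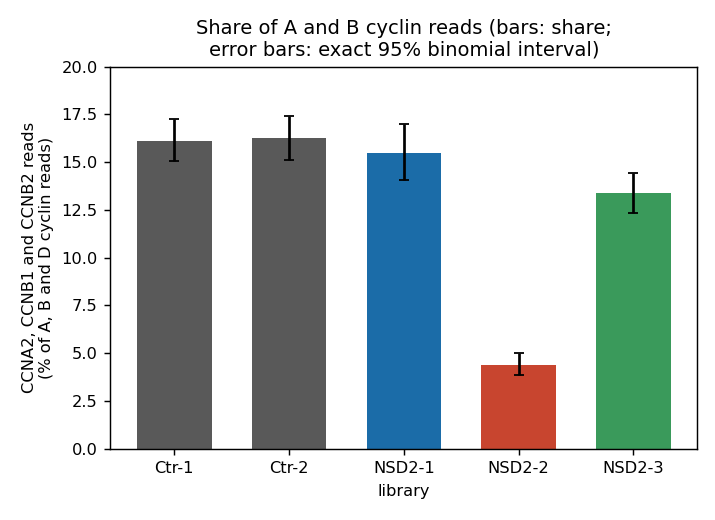
Share of A and B cyclin reads among all A, B and D cyclin reads, in percent (vertical axis from 0), in each of the 5 libraries, with exact 95% binomial intervals as error bars. Both controls, NSD2-1 and NSD2-3 lie between 13.4% and 16.2%, and NSD2-2 is at 4.40%.

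Counted over the 10 genes, 9 log2 differences were negative and 1 was positive, beside 5822 negative and 5491 positive of the 11313 genes tested. At an unadjusted limma p under 0.05, 4 genes were lower (CCNA2, CCNB1, CCNB2 and CCNE2) beside 4.99% of all genes tested, and 0 were higher beside 4.19%. In 6 genes (these and CCNE1 and CDK2) every NSD2-KD library lay below both Ctr-KD libraries, as in 13.9% of all genes, and in 0 genes did every one lie above, as in 13.8%. After adjustment over all genes, 0 of the 10 were called by limma, and likewise 0 by the 3 other tools run on the recovered read counts. These tools called 0.621% (DESeq2), 0.141% (edgeR) and 0.0884% (limma-voom) of the genes they tested, and DESeq2 gave no adjusted p for CCNE1 and CCNE2.

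Per kilobase of exon, CCND1 was by far the most abundant of the 10 RNAs, with 652 ± 1.94 normalized counts per kb (SD, n = 2) in Ctr-KD and 631 ± 318 (SD, n = 3) in NSD2-KD. On this scale CCNB1 came next in Ctr-KD with 126, then CCNA2 with 99.0, CCND3 with 70.5, CCNB2 with 39.8, CDK2 with 36.9, CDK1 with 16.7, CCND2 with 6.70, CCNE1 with 6.41 and CCNE2 with 4.26. The Ctr-KD libraries of CCNB2 (37.7 and 41.9 per kb) overlapped those of CDK2 (38.0 and 35.7), and those of CCND2 (6.32 and 7.08) overlapped those of CCNE1 (6.97 and 5.85), so that neither pair had a settled order. In NSD2-KD the mean levels per kb were 65.1 for CCNB1 and 55.8 for CCNA2, both below the 73.2 of CCND3, but the NSD2-3 library alone had 98.3 for CCNB1 and 85.3 for CCNA2, above its 80.0 for CCND3. The place of CCND3 depended on the length used: per kb of the canonical transcript it had 200.3 in Ctr-KD and 208 in NSD2-KD, above CCNB1 (151 and 78.1) and CCNA2 (99.0 and 55.8) in both groups. CCNE2 was lowest in both groups, at 4.26 per kb of exon in Ctr-KD and 1.40 in NSD2-KD.

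Averaged over CCNA2, CCNB1, CCNB2 and CDK1, the log2 difference was -0.74 with NSD2-1, -1.42 with NSD2-2 and -0.39 with NSD2-3. Of 7578 other genes with a mean of at least 50 normalized counts, the 5 nearest to this average by Euclidean distance over the 5 libraries were KIAA0101 (0.106), BIRC5 (0.148), NUSAP1 (0.149), KIF23 (0.174) and ANLN (0.175). ANLN, the most abundant by normalized count, had 665 and 670 in Ctr-KD and 398, 221 and 507 in NSD2-KD. The 4 genes did not follow it equally, since NSD2-1 was at the control level for CDK1 alone. Of the 6 genes outside the average, CDK2 lay nearest to it, at 0.941, and the D cyclins lay farthest, from 1.73 for CCND3 to 2.01 for CCND1.

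Beyond the cyclins and their S phase and mitotic kinases, 55 other regulators of the pathway were examined, of which 50 passed the filter. None was called by limma after adjustment, by edgeR or by limma-voom, and DESeq2 called 4, beside 0.621% of all the genes it tested. At an unadjusted limma p under 0.05, 12 were lower and 3 higher (beside 4.99% and 4.19% of all genes tested) and 35 were neither, and the median log2 difference of the 50 was -0.17, beside -0.0089 over all genes. The lower ones were mainly in the lists of phosphatases and inhibitory kinases of the CDKs (4 of 5) and of cyclin destruction (5 of 8), against 0 of 11 other CDKs and 1 of 11 other cyclins.

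Of the D cyclin kinases, CDK6 had 914 and 934 normalized counts in Ctr-KD and 576, 180 and 747 in NSD2-KD. Every siRNA was below the controls, and NSD2-2, where CCND1 was highest, stood at 19.5% (counting interval 16.5 to 22.9). Its log2 difference of -1.11 ± 0.50 (SE) had a wide 95% interval of -2.26 to 0.03 (limma adjusted p = 0.557), and for CDK4 the groups overlapped. The phosphatases CDC25A and CDC25C, which remove inhibitory phosphates from the CDKs, had log2 differences of -1.12 and -0.89, and PKMYT1, the kinase that places such a phosphate on CDK1, one of -1.27. The controls of PKMYT1 were themselves far apart, at 54.3 and 112 normalized counts. For the phosphatase CDC25B (-0.46) and the inhibitory kinase WEE1 (-0.53) the groups overlapped. CDK7, the catalytic subunit of the CDK-activating kinase, was above both controls with every siRNA, with 93.4 and 73.0 normalized counts in Ctr-KD and 107, 149 and 129 in NSD2-KD (log2 difference 0.61; limma adjusted p = 0.356). For the other subunits of that kinase, CCNH (log2 difference -0.23) and MNAT1 (0.31), the groups overlapped.

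In the machinery that destroys cyclins, all 8 log2 differences were negative, as were those of 5822 of the 11313 genes tested. For FZR1 (-0.04), FBXW7 (-0.27) and SKP2 (-0.38) the groups overlapped, and SKP2 was above both controls with NSD2-3. CDC20, which activates the anaphase-promoting complex in mitosis, had 207 and 250 normalized counts in Ctr-KD and 129, 84.1 and 122 in NSD2-KD (log2 difference -1.04 ± 0.20 SE). It was called by DESeq2 (adjusted p = 0.0122) and not by limma (adjusted p = 0.197). CCNF, a substrate receptor of an SCF ubiquitin ligase, had 144 and 145 in Ctr-KD and 66.3, 31.7 and 77.1 in NSD2-KD, and the log2 difference was -1.39 ± 0.34 SE (DESeq2 adjusted p = 0.0255, limma adjusted p = 0.267). Both genes were below the controls with every siRNA and lowest with NSD2-2. FBXO5, an inhibitor of the anaphase-promoting complex, and UBE2C and UBE2S, its ubiquitin-conjugating enzymes, had log2 differences of -1.14, -0.94 and -0.53. UBE2S was the most even across siRNAs, at 67.6%, 73.0% and 66.8% of the controls.

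Among the 8 CDK inhibitors, CDKN1A (p21), an inhibitor of cyclin-CDK complexes, had 1851 and 1905 normalized counts in Ctr-KD and 2455, 3955 and 3340 in NSD2-KD. All 3 siRNAs were above the controls, NSD2-2 the most (211%), and the log2 difference was 0.76 ± 0.17 SE (DESeq2 adjusted p = 0.0398, limma adjusted p = 0.237). CDKN2C (p18), an inhibitor of CDK4 and CDK6, was on the other side, with 110 and 86.4 in Ctr-KD and 44.2, 22.9 and 44.9 in NSD2-KD (log2 difference -1.42 ± 0.30 SE; DESeq2 adjusted p = 0.0156, limma adjusted p = 0.214). CDKN3, a phosphatase that acts on CDK2, had a log2 difference of -1.12 (limma adjusted p = 0.241). For CDKN1B (-0.09), CDKN1C (0.06), CDKN2A (-0.03) and CDKN2D (-0.32) the groups overlapped. CDKN2B was above both controls with every siRNA (0.48), and the median of the 8 was -0.06. CCNC, the cyclin of the Mediator kinase CDK8, had 100.03 and 106 normalized counts in Ctr-KD and 57.1, 73.2 and 79.1 in NSD2-KD, and its lowest library was NSD2-1 rather than NSD2-2 (log2 difference -0.57; limma adjusted p = 0.389).

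**Figure D5:**
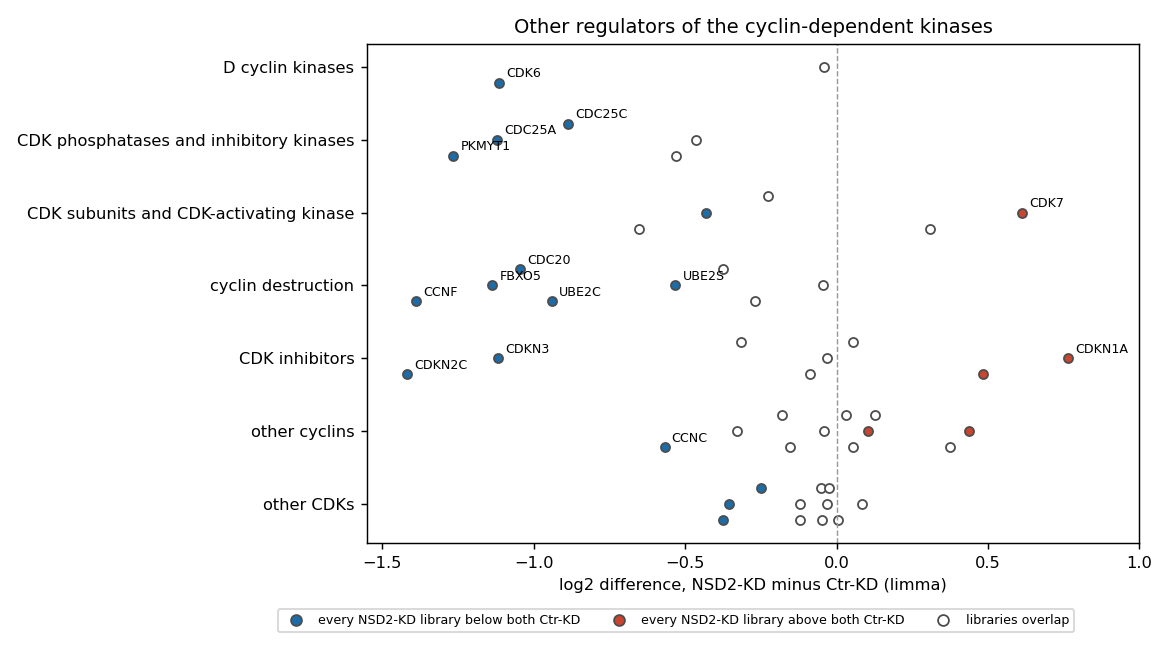
Log2 difference between NSD2-KD and Ctr-KD from limma (horizontal axis) for 50 other cell cycle regulators in 7 lists (vertical axis; points are staggered for legibility). Filled points are genes whose 3 NSD2-KD libraries all lie below (blue) or above (red) both Ctr-KD libraries, 16 and 5 genes beside 13.9% and 13.8% of all genes tested. The lists of CDK phosphatases and inhibitory kinases and of cyclin destruction lie wholly to the left of 0, some genes with overlapping groups.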

How the data were processed

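RNA-seq of 5 libraries of IMR-90 cells (2 Ctr-KD, 3 NSD2-KD) was examined from 1 deposited table. The authors prepared poly(A) libraries with the NEBNext Ultra RNA kit, aligned reads to hg19 with HISAT2, counted them per gene with featureCounts and scaled them with DESeq2. The annotation and the strand setting are not given in the sources used here. The deposited values are a signal: gene counts divided by a size factor per library. In each library 100% of values were whole multiples of 1 read (tolerance 0.01 reads), which gave back the reads. A second table, holding the authors' own comparison (fold changes and p-values), was not used, and 0 sample columns were left over.

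Genes with a mean of at least 10 normalized counts (11313) were compared on the log2(normalized count + 1) scale by limma 3.58.1, its prior spread following mean expression, in R 4.3.3, with Benjamini-Hochberg adjustment over all of them. A fold change on this scale understates that of low genes. edgeR 4.0.16, DESeq2 1.42.0 and limma-voom were run on the recovered reads, and other alternatives changed the pseudocount (0.5, 5), the filter (none, 50), the normalization, the spread estimate or the libraries. The scripts were tested on simulated data. Intervals on reads (scipy 1.17.1) are exact binomial ones at 95% and cover counting error only.

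The genes, the lists and the marker lists were chosen with earlier results of these data known. Named from the other lists were genes called by limma, edgeR or DESeq2, and genes whose NSD2-KD libraries all lay beyond both Ctr-KD libraries with a log2 difference of at least 0.5. Lengths and positions are from GENCODE on GRCh37, and promoters from RefSeq on GRCh38.p14. The data did not show that the numbers of the labels pair the libraries. Deviations of the same-numbered Ctr-KD and NSD2-KD libraries from their group means correlated at -0.015 and -0.027 over genes. With 2 Ctr-KD libraries the deviations of one mirror those of the other, so these correlations cannot exclude a pairing.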

Additional observations from a re-analysis of the deposited data

How the results depend on the processing

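The levels of CCNE1 and CCNE2 rest on 4 to 21 reads a library. CCNA2, CCNB1, CCNB2, CCNE1, CCNE2, CDK1 and CDK2 had negative log2 differences under each alternative run for them, and the gap between G1 and S/G2/M medians ranged from 0.43 to 1.08. Dropping the filter, dropping the trend and robust estimation cannot change these differences, only their tests. For CCND2 the log2 difference turned to 0.011 with quantile normalization, 0.043 without Ctr-KD replicate 2 and 0.20 without NSD2-KD replicate 3 (range with 1 library left out, -0.19 to 0.20). That of CCND3 turned to -0.019 without NSD2-KD replicate 3 (range -0.019 to 0.14), and that of CCND1 to 0.26 without NSD2-KD replicate 1 (range -0.55 to 0.26). The cause was not tested.

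The number of the 10 genes lower at an unadjusted p under 0.05 was 2 with robust estimation and 2 to 5 when 1 library was left out (2 without either Ctr-KD library), beside 4 in the reported fit. The replicate block, which uses numbers that the data do not show to pair the libraries, called 2 of them lower (CCNA2, log2 difference -1.29, and CCNB1, -1.42, each with limma adjusted p = 0.0137), beside 0 under every other setting. By construction its differences equal those without NSD2-KD replicate 3, with CCND2 at 0.20 and CCND3 at -0.019. Of all genes it called 84 lower and 18 higher, beside 6 and 4 in the reported fit, 44 and 14 by DESeq2, 11 and 5 by edgeR, 1 and 0 without the trend, 22 and 8 without NSD2-KD replicate 3, and 0 and 0 without either Ctr-KD library.

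Of the other regulators, 3 were called lower and 1 higher by DESeq2, 4 and 1 with the replicate block, and 0 to 0 lower and 0 to 1 higher when 1 library was left out (CDKN1A, without NSD2-KD replicate 1). With canonical transcript lengths, chosen after seeing the data, 7 of 10 genes kept their place in the order of Ctr-KD levels per kb, and CCND3 moved above CCNB1 and CCNA2.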

Other observations

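The spread between siRNAs, looked at after the values were seen, was wide for several of these genes. Of 5120 genes with a mean of at least 100 normalized counts, the ratio of the highest to the lowest NSD2-KD library had a median of 1.22, and that of the Ctr-KD libraries one of 1.06, which is not comparable, since a ratio over 3 libraries exceeds one over 2 at equal spread. CDK6 had the 8th widest spread (4.14-fold, wider than 99.8% of genes), CCND1 the 39th (3.07-fold), CCNB1 the 59th (2.77-fold) and CCNA2 the 93rd (2.55-fold). CCND3 and CDK2, at 1.25-fold and 1.39-fold, were nearer to the median. NSD2 itself was left at 19.9%, 18.1% and 19.4% of the controls by NSD2-1, NSD2-2 and NSD2-3. With 1 library for each siRNA, a difference between siRNAs and one between cultures cannot be told apart.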
